A study of Saccharomyces cerevisiae with 2 samples.

Results

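The phosphate regulon of *S. cerevisiae* was examined through 10 genes, chosen by name for their known roles in phosphate uptake (*PHO84*, *PHO89*, *GIT1* and *SPL2*), phosphate release (*PHO5* and *PHO8*), phosphate signalling (*PHO81*) and polyphosphate synthesis (*VTC1*, *VTC3* and *VTC4*). They are 10 of the 7126 rows of the expression table. The table itself names 8 of them, while *GIT1* (YCR098C) and *SPL2* (YHR136C) carry no name there and were found by locus tag. All 10 averaged 1 or more TPM (a relative transcript count that is corrected for gene length and by design scaled to a fixed total) and were compared.

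Both libraries came from BL03-D-4, a carotenoid producer derived from BY4742 and grown for 24 h, with 1 library in YPM and 1 in YPD2, the medium that the sample labels write as YPD. The strain carries *crtB*, *crtI* and *crtE*, each behind the *HSP26* promoter, in place of *GAL80*, a truncated HMG-CoA reductase gene behind the *CIT1* promoter at the 416d site, and a deletion of *ALD6*, so these alleles are shared by both libraries. The deleted genes *GAL80* (YML051W) and *ALD6* were listed at 0 in both, which fits the strain but does not tell the media apart. YPM differed from YPD2 in added potassium phosphate, in magnesium, potassium and sodium sulfate, in a trace metal solution and in the maker and lot of the yeast extract. The effect of phosphate therefore cannot be told apart from that of the other additions, and no difference has a replicate check.

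Budding yeast senses phosphate through a kinase, Pho85, and its cyclin, Pho80. In phosphate-rich cells this pair phosphorylates the activator Pho4 and keeps it out of the nucleus, and in starved cells the inhibitor Pho81 stops the kinase, so that Pho4 and its partner Pho2 switch on genes for phosphate uptake, secreted phosphatases and polyphosphate synthesis. Polyphosphate is a chain of phosphates that the vacuolar transporter chaperone (VTC) complex makes and deposits in the vacuole as a phosphate store.

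All 10 genes were listed lower in YPM than in YPD2. The ratio of YPM to YPD2 was lowest for *SPL2*, *PHO84* and *PHO5*, which were called lower, meaning at least 2-fold lower after 1 TPM was added to each value, while none was called higher. Of the 6350 rows that averaged 1 or more TPM over both libraries, 5.15% were called lower and 3.28% higher. A log2 ratio below 0 was the more common direction in the whole table as well, with 63.1% of rows, and the median row stood at -0.13. Relative to that median row, all 10 genes were still below it. The median log2 ratio of the 10 genes was -0.60, and a list of 37 further pathway genes had a median of -0.26. Both lists were chosen with earlier results of these data known, so this contrast depends on that choice.

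**Figure D1:**
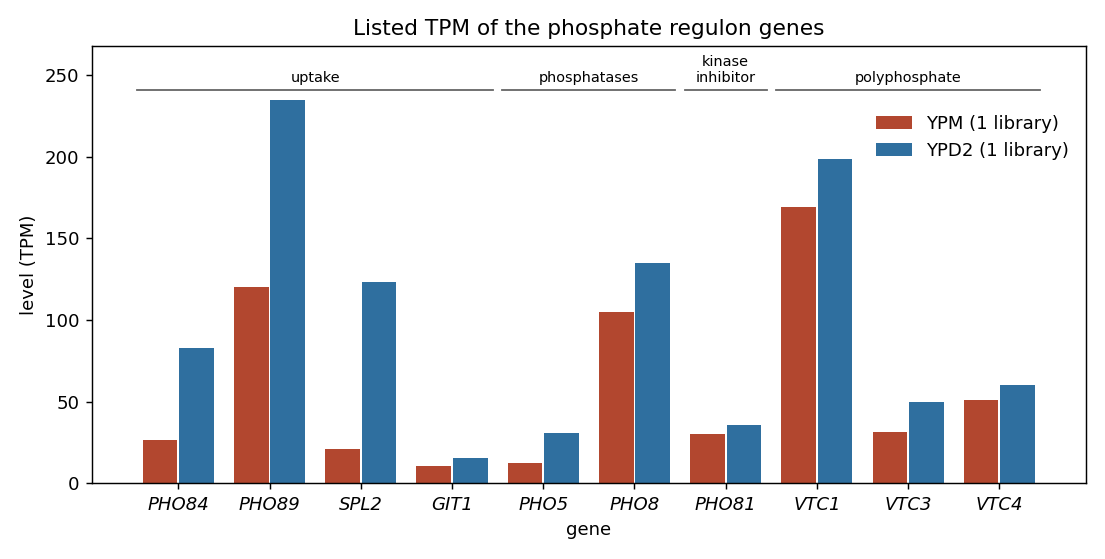
Level in TPM (vertical axis, from 0) of each of the 10 genes (horizontal axis, grouped by role) in the single YPM library and the single YPD2 library, drawn as bars with no error because there are no replicates. Each YPM bar is shorter than its YPD2 bar, with the lowest ratio for *SPL2* (20.8 TPM in YPM, against 123 TPM in YPD2) and the ratio nearest to 1 for *PHO81* (30.4 TPM in YPM, against 35.5 TPM in YPD2).

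The letters that Pho4 recognizes were searched because they are a feature by which these genes are commonly grouped. Pho4 binds the core CACGTG, which reads the same on both strands, and a weaker form, CACGTT. Both forms were searched on both strands in the 500 bases before each start codon, and no match overlapped another. CACGTG stood upstream of 8 of the 10 genes and of 6.23% of 6000 protein-coding genes. CACGTT stood upstream of 6 of the 10 genes and of 16.0% of those 6000. At least 1 match of any form was found for 9 genes, against 21.0% of those 6000, and *GIT1* had neither in this window. Of the 37 further pathway genes, 11 had CACGTG and 18 had at least 1 match of any form. The 10 genes are known partly through such sites, so the counts describe them and show no cause.

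The stretches that hold these matches are printed for the 3 genes called lower and for *VTC4*. That gene had 2 copies of CACGTG, as *PHO84* did, but a log2 ratio of only -0.24. They are RefSeq R64 sequence read in the direction of each gene, with the matches in capitals (AACGTG is CACGTT on the other strand). They lie at chrVIII:375230-375473 for *SPL2*, chrXIII:26045-26248 for *PHO84*, chrII:431187-431325 for *PHO5* and chrX:413500-413536 for *VTC4*, all on the minus strand. The *PHO84* stretch also lies within the coding sequence of the upstream gene YML122C.
SPL2: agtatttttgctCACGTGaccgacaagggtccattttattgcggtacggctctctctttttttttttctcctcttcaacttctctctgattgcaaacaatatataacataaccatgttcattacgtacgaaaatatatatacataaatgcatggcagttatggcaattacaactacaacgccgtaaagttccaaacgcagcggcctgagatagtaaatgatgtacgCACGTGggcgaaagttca
PHO84: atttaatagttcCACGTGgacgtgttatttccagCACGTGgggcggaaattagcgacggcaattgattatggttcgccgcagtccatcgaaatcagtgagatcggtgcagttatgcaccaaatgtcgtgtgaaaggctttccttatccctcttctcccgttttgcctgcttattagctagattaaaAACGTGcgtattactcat
PHO5: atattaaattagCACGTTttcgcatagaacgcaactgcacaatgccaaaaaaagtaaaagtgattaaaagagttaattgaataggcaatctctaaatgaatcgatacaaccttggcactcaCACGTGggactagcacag
VTC4: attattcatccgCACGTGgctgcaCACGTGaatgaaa

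*SPL2* had 4 copies of CACGTG, which start 361, 147, 90 and 31 bases before its start codon, and the first 2 of them are in the printed stretch. *PHO84* had CACGTG at 436 and 414 bases and CACGTT at 262 bases. *PHO5* had CACGTT at 362 bases and CACGTG at 253 bases. Of the 6000 genes, 0.5% had 3 or more matches, and *SPL2*, *PHO84* and *VTC3* were among them. The genes with the lowest ratios, *SPL2* and *PHO84*, had 4 and 3 matches, but the number of matches did not order all the genes. *PHO81* had 1 match of each form, as *PHO5* did, and a log2 ratio of -0.22, while that of *PHO5* was -1.23. The CACGTT of *PHO81* starts only 8 bases before its start codon. *VTC3* had 3 matches and a log2 ratio of -0.65. A link between matches and ratios was not tested.

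**Figure D2:**
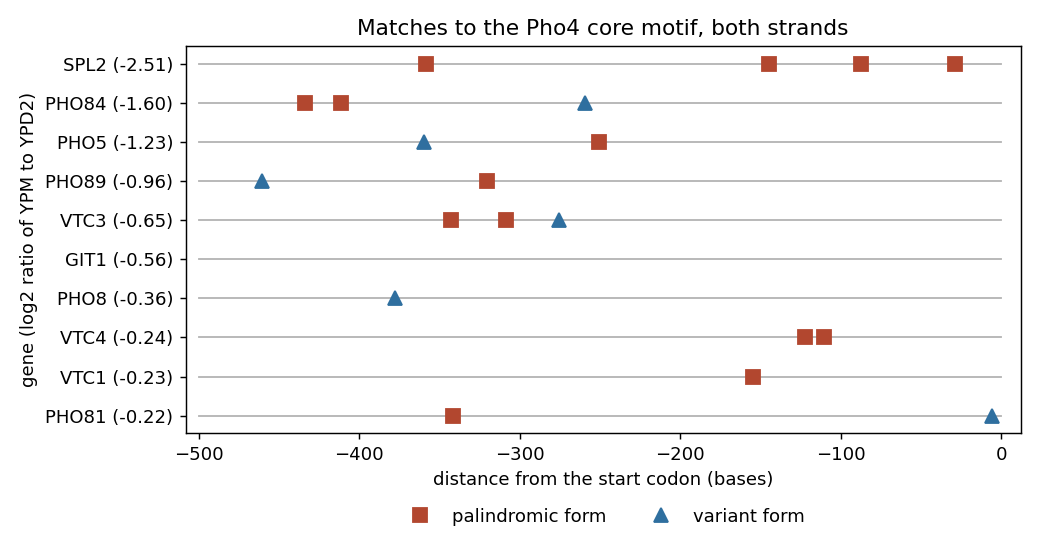
Matches to the palindromic form (squares) and to the variant form (triangles) of the Pho4 core in the 500 bases before the start codon (horizontal axis, distance in bases) of each gene (vertical axis, with its log2 ratio of YPM to YPD2 in brackets, lowest at the top). *SPL2*, with the lowest ratio, has 4 palindromic matches, *VTC4* has 2, and *GIT1* has no match of either form.

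The lowest ratios were those of *SPL2* and *PHO84*, both of which act in uptake. *SPL2* encodes a small protein that shuts down low-affinity phosphate transport, in part by sending the carrier Pho87 to the vacuole. Its level was 20.8 TPM in YPM, against 123 TPM in YPD2, a log2 ratio of -2.51 that was called lower. Its YPM level was 0.169 of its YPD2 level. Of the 6350 rows compared, 0.614% had a lower ratio. The coding sequence of *SPL2* lies on chromosome VIII from 374654 to 375100 (minus strand, 1 exon) and is 447 bases long. None of its 50-base words occurs elsewhere in R64, so reads of that length could be assigned to it alone.

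*PHO84* encodes the high-affinity phosphate and proton symporter of the plasma membrane, the main route of phosphate entry in starved cells. It was listed at 26.7 TPM in YPM, against 83.1 TPM in YPD2, a log2 ratio of -1.60, and was called lower. It thus lay below the median level of the table in YPM, where 41.0% of rows were lower, and well above it in YPD2, where 73.7% were lower. The gene lies on chromosome XIII from 24037 to 25800 on the minus strand. R64 annotates an antisense RNA, YNCM0001W, across all 1764 bases of it, from 23564 to 26578 on the plus strand. This RNA has no row in the table, and since the use of strand is not stated, reads of *PHO84* and of its antisense RNA cannot be told apart.

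*PHO89*, on chromosome II from 796798 to 798522 (minus strand), encodes the sodium-coupled high-affinity phosphate transporter. Its level was 121 TPM in YPM, against 235 TPM in YPD2. Its log2 ratio of -0.96 fell just short of the limit of -1, so it was not called, and 5.67% of rows had a lower ratio. *PHO89* was the most abundant of the 10 genes in YPD2 and came after *VTC1* in YPM. Its level was 4.52 times that of *PHO84* in YPM and 2.83 times in YPD2.

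*GIT1*, on chromosome III from 297049 to 298605 (minus strand), encodes the permease that imports glycerophosphoinositol, from which cells can recover phosphate. It was the least abundant of the 10 genes in both libraries, with 10.3 TPM in YPM, against 15.6 TPM in YPD2, and its log2 ratio of -0.56 was within the limit. The 4 uptake genes together summed to 178 TPM in YPM, against 457 TPM in YPD2. *SPL2* made up 11.7% of that sum in YPM and 27.0% in YPD2, while *PHO89* made up 67.6% in YPM and 51.4% in YPD2.

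**Figure D3:**
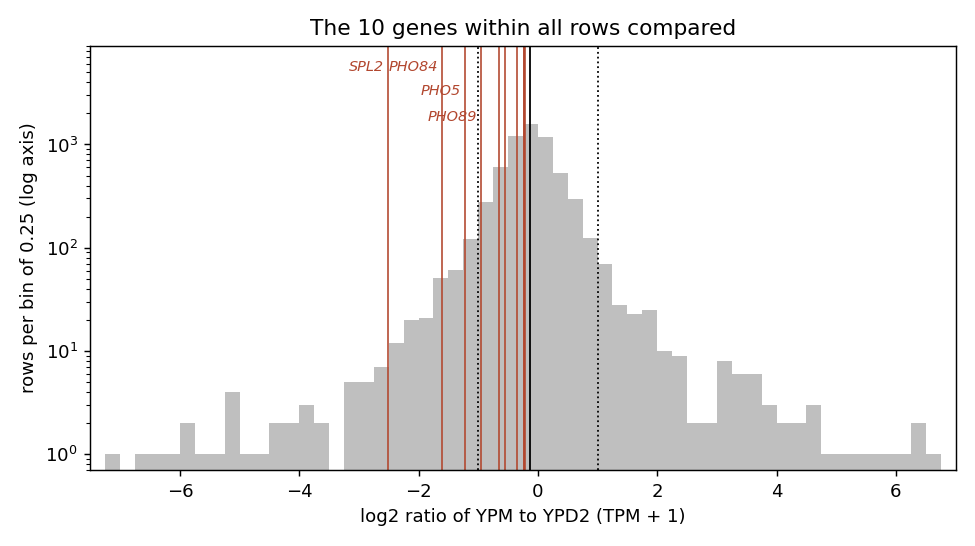
Log2 of the YPM level over the YPD2 level, each with 1 TPM added (horizontal axis), for the 6350 rows compared, as grey bars of rows per bin (vertical axis, log scale), with the 10 genes as red lines, the median row as a black line and the 2-fold limits as dotted lines. All red lines lie left of the median row at -0.13, and *SPL2*, *PHO84* and *PHO5* lie left of the lower limit.

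The phosphatases differed from each other in size. *PHO5*, on chromosome II from 429548 to 430951 (minus strand), encodes the main secreted acid phosphatase, which releases phosphate from compounds outside the cell and is the classical readout of this pathway. It was listed at 12.7 TPM in YPM, against 31.0 TPM in YPD2, a log2 ratio of -1.23, and was called lower. Its relatives did not reach the limit. *PHO3*, the constitutive acid phosphatase next to it on chromosome II, was listed at 11.1 TPM in YPM, against 16.1 TPM in YPD2 (log2 ratio -0.49).

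*PHO11* and *PHO12* encode repressible acid phosphatases close to *PHO5* in sequence. *PHO11* was listed at 16.1 TPM in YPM, against 17.7 TPM in YPD2, and *PHO12* at 20.3 TPM in YPM, against 19.5 TPM in YPD2. Both have 1 CACGTG and 1 CACGTT upstream, as *PHO5* does. Their values are uncertain, since 88.3% of the 50-base words of *PHO11* and 87.2% of those of *PHO12* occur elsewhere in R64. For *PHO5* the share was 12.3%, with words shared with *PHO3*, *PHO11* and *PHO12*. The sum over these 4 genes, which depends little on how reads were divided among them, was 60.1 TPM in YPM, against 84.2 TPM in YPD2, a log2 ratio of -0.48 that was within the limit. *PHO5* held 21.0% of the sum in YPM and 36.8% in YPD2. A further listed phosphatase gene, *DIA3*, was not part of the sum. Its level was 17.9 TPM in YPM, against 20.8 TPM in YPD2 (log2 ratio -0.20).

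*PHO8*, on chromosome IV from 1418550 to 1420250 (minus strand), encodes the vacuolar alkaline phosphatase, which acts inside the cell. Its level was 105 TPM in YPM, against 135 TPM in YPD2, a log2 ratio of -0.36. Within the upstream window searched, *PHO8* had only the variant form of the Pho4 core, 380 bases before the start codon. Sequence further upstream was not searched, so a palindromic match there is not excluded. *PHO8* was the third most abundant of the 10 genes in both libraries, at 8.31 times the level of *PHO5* in YPM and 4.35 times in YPD2.

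*PHO81*, the inhibitor of the Pho80-Pho85 kinase and itself a target of Pho4, had the log2 ratio nearest to 0 among the 10 genes. The table gave it 30.4 TPM in YPM, against 35.5 TPM in YPD2, a log2 ratio of -0.22, and 41.9% of rows had a lower ratio. The other regulators, which mainly act through their proteins, also stayed within the limit. *PHO81* itself lies on chromosome VII from 954674 to 958210 (minus strand). *PHO4* was listed at 76.8 TPM in YPM, against 98.5 TPM in YPD2 (log2 ratio -0.36), and *PHO2* at 42.5 TPM in YPM, against 55.9 TPM in YPD2 (-0.39). *PHO80* was listed at 32.7 TPM in YPM, against 31.8 TPM in YPD2, and *PHO85* at 102 TPM in YPM, against 106 TPM in YPD2.

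The VTC genes were listed lower in YPM, and none of them was called. Of the rows compared, 40.3% had a lower ratio than *VTC1* and 39.7% a lower ratio than *VTC4*, so both stood near the median row. For *VTC3* the share was 12.5%. *VTC4*, on chromosome X from 411234 to 413399 (minus strand), encodes the subunit that polymerizes phosphate. The table gave it 51.1 TPM in YPM, against 60.4 TPM in YPD2. *VTC1*, a small membrane subunit encoded on chromosome V from 302806 to 303195 (plus strand), was listed at 169 TPM in YPM, against 199 TPM in YPD2 (log2 ratio -0.23). *VTC3*, whose SPX domain belongs to a family of domains that sense inositol pyrophosphates, was listed at 31.3 TPM in YPM, against 49.6 TPM in YPD2, and its log2 ratio of -0.65 was the lowest of the complex. It lies on chromosome XVI from 514511 to 517018 (minus strand).

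Their paralog *VTC2* was listed at 51.0 TPM in YPM, against 53.7 TPM in YPD2 (-0.07, which is above the median row), and *VTC5* at 15.8 TPM in YPM, against 21.6 TPM in YPD2 (-0.43). The 5 subunits stood in the same order in both libraries, with *VTC1* at 53.2% of their summed TPM in YPM and 51.8% in YPD2, and *VTC3* at 9.81% in YPM and 12.9% in YPD2. No VTC coding sequence had a 50-base word elsewhere. At a looser limit of 1.5-fold, *VTC3* and *PHO89* would also be called, which gives 5 of the 10 genes where 14.9% of all rows were at least 1.5-fold lower.

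The order of levels among the 10 genes differed between the media mainly through *SPL2* and *PHO84*. From highest to lowest, the order in YPM was *VTC1*, *PHO89*, *PHO8*, *VTC4*, *VTC3*, *PHO81*, *PHO84*, *SPL2*, *PHO5* and *GIT1*. In YPD2 it was *PHO89*, *VTC1*, *PHO8*, *SPL2*, *PHO84*, *VTC4*, *VTC3*, *PHO81*, *PHO5* and *GIT1*, so that *SPL2* and *PHO84* stood below *VTC4*, *VTC3* and *PHO81* in YPM and above them in YPD2. Without replicates, whether neighbours in this order differ is unknown.

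A wider list of 37 phosphate pathway genes was compared in the same way, and 1 was called higher and 1 lower, where 3.28% of all rows were called higher and 5.15% lower. A log2 ratio below 0 was found for 25 of the 37, where 63.1% of all rows had one, so the list is not set apart by these counts. Among 8 further transport genes, 7 had a log2 ratio below 0 and none was called. The low-affinity carrier *PHO87*, the target of Spl2, was listed at 33.6 TPM in YPM, against 58.1 TPM in YPD2 (-0.77). The exception was *PHO88* (YBR106W, named *SND3* in R64), an endoplasmic reticulum protein, at 238 TPM in YPM, against 149 TPM in YPD2 (0.67).

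Both called genes of the wider list belong to phospholipid turnover, which yields glycerophosphodiesters. *NTE1*, a phospholipase B of the endoplasmic reticulum, was called lower at 5.46 TPM in YPM, against 13.3 TPM in YPD2 (log2 ratio -1.14). *PLB3*, another phospholipase B, was called higher, with 34.6 TPM in YPM, while in YPD2 it was listed at 0. A listed 0 can be a failed estimate, so no fold is given. The other 4 genes of this group were within the limit, among them *GDE1*, which cleaves glycerophosphocholine and belongs to the regulon, at 40.0 TPM in YPM, against 23.5 TPM in YPD2 (0.74).

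Of 4 genes that break down polyphosphate, 3 had a log2 ratio above 0, where 63.1% of all rows had one below 0. The exopolyphosphatase *PPX1* and the diphosphoinositol phosphatase *DDP1* were only just above 0, at 0.09 and 0.01. The endopolyphosphatase *PPN2* had 0.56, and the endopolyphosphatase *PPN1* had -0.33. None was called. *PHM8*, a nucleotidase induced by phosphate starvation, came nearest to the upper limit at 140 TPM in YPM, against 71.9 TPM in YPD2 (0.95). Among 7 genes of inositol pyrophosphate metabolism, which again include *DDP1*, 4 were below 0 and none was called, from *KCS1* at -0.52 to *ARG82* at 0.44.

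**Figure D4:**
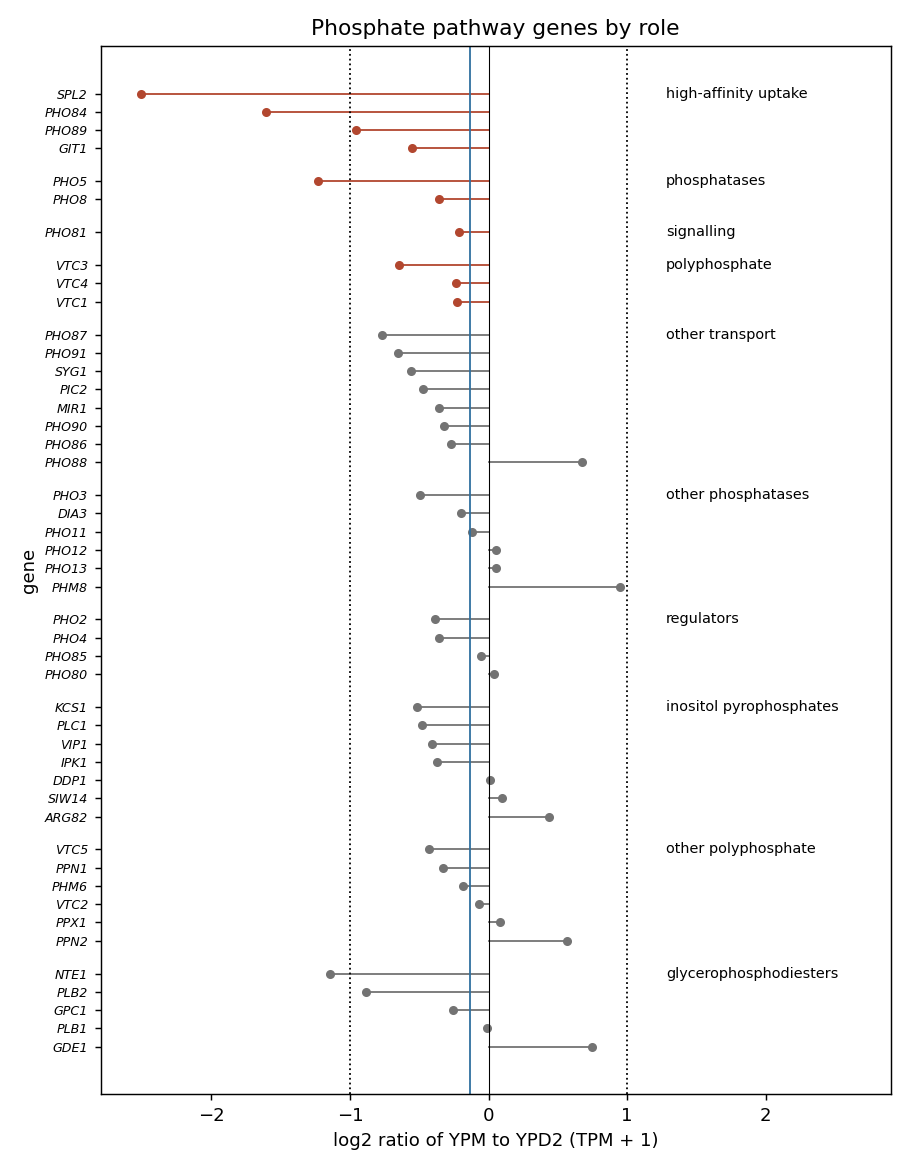
Log2 of the YPM level over the YPD2 level, each with 1 TPM added (horizontal axis), for the 10 genes (red) and the further pathway genes (grey), grouped by role down the page, with the 2-fold limits dotted and the median row at -0.13 in blue. *SPL2*, *PHO84*, *PHO5* and *NTE1* lie past the lower limit, and *PLB3*, which is listed at 0 in YPD2, is not drawn.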

How the data were processed

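Messenger RNA was isolated by polyA selection and sequenced for the authors by the company Majorbio, from 1 library per medium. The deposited table gives TPM per gene, estimated with RSEM, and the submitters' processing notes also name HISAT2 and StringTie. Their versions, the genome build, the annotation and whether counting used strand are not given in the sources used here. The column MYPD was read as YPM because the labels call that medium modified YPD. TPM keeps no read depth, so no interval or limit of detection was computed, and with 1 library per medium there is no p-value.

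Levels were compared as log2((YPM + 1)/(YPD2 + 1)), which understates differences of low genes, over the 6350 rows that averaged 1 or more TPM. The table summed to 925918 TPM in YPM and 937091 TPM in YPD2, so the listed rows did not add up to the same total. Scaling both to the same sum was among the rescalings named below. A gene was called at a 2-fold difference. Symbols, places and sequences came from RefSeq R64, which matched 6044 of 7126 rows. The 10 genes and the 37 further pathway genes were chosen with earlier results of these data known. Values are given for the 10 genes, called pathway genes, listed paralogs of the 10 genes and the 4 regulators, and others named were chosen after their values were seen. Shared reads were described by words of 50 bases. The calculation of the calls was tested on simulated data, which does not measure replicate error. Alternatives were pseudocounts of 0.1, 5 and 0 TPM, other minimum levels, 3 rescalings, a 1.5-fold limit and a sum over acid phosphatases. The work used Python (3.11.15) with numpy (2.4.6), pandas (2.3.3) and, for plots, matplotlib (3.10.9). A further 4 lines of the table were blank and not used here.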

Additional observations from a re-analysis of the deposited data

How the results depend on the processing

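The 10 genes were recomputed under 10 other settings, 1 of them for *PHO5* alone, which gave 91 log2 ratios. None of these changed sign, and 88 stayed on the same side of the limit. Only the 3 rescalings and the acid phosphatase sum could have changed a sign. Another pseudocount cannot do so, and the other minimum levels and the 1.5-fold limit left the ratios themselves unchanged. The median of the 10 genes ran from -0.63 without a pseudocount to -0.48 when the median gene was set to no change, and 3 genes were called lower under each of the other pseudocounts, minimum levels and rescalings. With a 1.5-fold limit, 5 genes were called lower and the median of -0.60 passed the limit, through the limit itself, and *PHO89* and *VTC3* were added. When *PHO5* was replaced by the sum over 4 acid phosphatases, its call was lost at -0.48, and no count of called genes was made there. No paired analysis was possible because each medium has 1 library. The depth behind each TPM is unknown, so the precision of the lowest levels, such as those of *GIT1* and *PHO5*, is unknown as well.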

Other observations

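The nearest annotated genes on both sides of the 10 genes gave 20 neighbours, of which 18 averaged 1 or more TPM. None of these was called lower, where 5.15% of all rows were, and 2 were called higher, where 3.28% of all rows were. The median log2 ratio of the 18 was -0.18. The 2 called higher are described here and were chosen after their values were seen. YML122C, annotated in R64 as a hypothetical protein, lies on chromosome XIII from 26038 to 26418, 237 bases upstream of *PHO84* on the same strand, and its level was 7.99 TPM in YPM, against 1.78 TPM in YPD2 (log2 ratio 1.69). It thus went the opposite way to *PHO84*, at low values. The antisense RNA that R64 annotates across *PHO84* also covers YML122C, so reads of the RNA and of either gene cannot be told apart. *ALD5*, a mitochondrial aldehyde dehydrogenase gene downstream of *VTC1*, had 49.2 TPM in YPM, against 20.9 TPM in YPD2 (log2 ratio 1.20).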
